A study of Arabidopsis thaliana with 2 samples.

Results

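The heat stress response of plants was followed through 10 Arabidopsis thaliana genes in mature stems of the hdt1 mutant and the wild type. The genes were taken by locus identifier, under a rule that names no measured value but was drawn up with earlier results of these data known, and all 10 were present among the 33602 loci of the expression table. They are the transcription factors HSFA2 (AT2G26150) and HSFA7A (AT3G51910), the chaperones HSP101 (AT1G74310), HSP90.1 (AT5G52640) and HSP70 (AT3G12580), the chloroplast small heat shock protein HSP21 (AT4G27670), and 4 cytosolic small heat shock proteins. Of these last, HSP17.4 (AT3G46230) and HSP18.2 (AT5G59720) belong to class I, and HSP17.6II (AT5G12020) and HSP17.6A (AT5G12030) to class II.

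RNA was taken from the main stem of hdt1 mutants and of the wild type, 35 days after flowering in each case. All plants were grown in a greenhouse at 20 °C with 16 h of light and 8 h of dark, and the labels name no heat treatment for either genotype. The series holds 1 library per genotype, and the labels give neither the hdt1 allele nor the number of plants behind a library. HDT1 encodes a plant-specific histone deacetylase of the HD2 family, and the comparison asks which stem transcripts differ between the mutant and the wild type. No difference therefore has a replicate check, no test between genotypes was made, and every interval below compares these 2 libraries, not the genotypes.

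In plants, heat unfolds proteins, and the chaperones that bind unfolded proteins are then no longer free to hold heat shock factors inactive. Factors of the A1 class, which are present before stress, then switch on a second tier of factors that includes HSFA2 and HSFA7A, and these sustain the transcription of chaperone genes. Small heat shock proteins hold unfolded proteins in a soluble state, HSP70 and HSP90 refold and mature them, and HSP101 pulls proteins out of aggregates. Heat shock factors bind heat shock elements, which are alternating GAA and TTC units in the DNA ahead of the gene.

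Matches to such elements ahead of the 10 genes are shown first, because heat shock factors bind sequences of this kind. They are matches of letters in the reference sequence, and binding at them was not measured. The 500 bases before each annotated gene start (RefSeq annotation of TAIR10.1) were searched for 3 alternating units, GAANNTTC followed by NNGAA or TTCNNGAA followed by NNTTC, which are each other's reverse complement and so cover both strands. Matches of 3 units stood ahead of 4 of the 10 genes. Capitals mark the GAA and TTC units, and up to 6 flanking bases are shown in lower case, 5′ to 3′ on the strand of the gene.
HSFA2: agtaacGAAgtTTCtgGAAcattgt
HSFA7A, distal element: acgaagTTCcaGAAgtTTCgactat
HSFA7A, proximal element: aaccgtTTCcaGAAgtTTCtaattt
HSP90.1: cgaaaaGAActTTCtgGAAttcgtt
HSP17.4, distal element: aacataGAAgcTTCttGAAgccacc
HSP17.4, proximal element: aaacctGAAatTTCaaGAAacttg

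The HSFA2 element lies at chr2:11135530-11135554 on the plus strand, and its units cover bases 88 to 76 before the gene start. The HSFA7A elements lie at chr3:19264943-19264967 and chr3:19264993-19265017 on the plus strand, 192 to 180 and 142 to 130 bases before the start. These 2 elements share their inner letters through all 3 units and differ in their flanks. The HSP90.1 element lies at chr5:21352256-21352280 on the plus strand, 295 to 283 bases before a start that is the start codon, since no 5′ untranslated region is annotated for this gene. The HSP17.4 elements lie at chr3:16984948-16984972 and chr3:16984868-16984891 on the minus strand, 99 to 87 and 18 to 6 bases before the start.

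Shorter matches of 2 units, GAANNTTC or TTCNNGAA, which also occur inside every match of 3, were the longest found ahead of 2 further genes. They are shown for comparison with the longer runs.
HSP21: agtcgaGAAacTTCgtatca
HSP17.6A: agacgtTTCtcGAAcgttag

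The HSP21 match lies at chr4:13820058-13820077 and the HSP17.6A match at chr5:3884847-3884866, both on the minus strand, 100 to 93 and 22 to 15 bases before the start. No match of 2 or 3 units was found in the 500 bases ahead of HSP101, HSP70, HSP17.6II or HSP18.2, which says only that these letters are not in this window. Among 26712 protein-coding genes of the table, 0.816% held a match of 3 units within 500 bases and 0.393% within 250 bases. The heat genes held one in 4 of 10 cases within 500 bases and in 3 of 10 within 250 bases, where the HSP90.1 element is left out. Matches of 2 units are common: 30% of all protein-coding genes and 6 of the 10 heat genes held one within 500 bases.

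**Figure D1:**
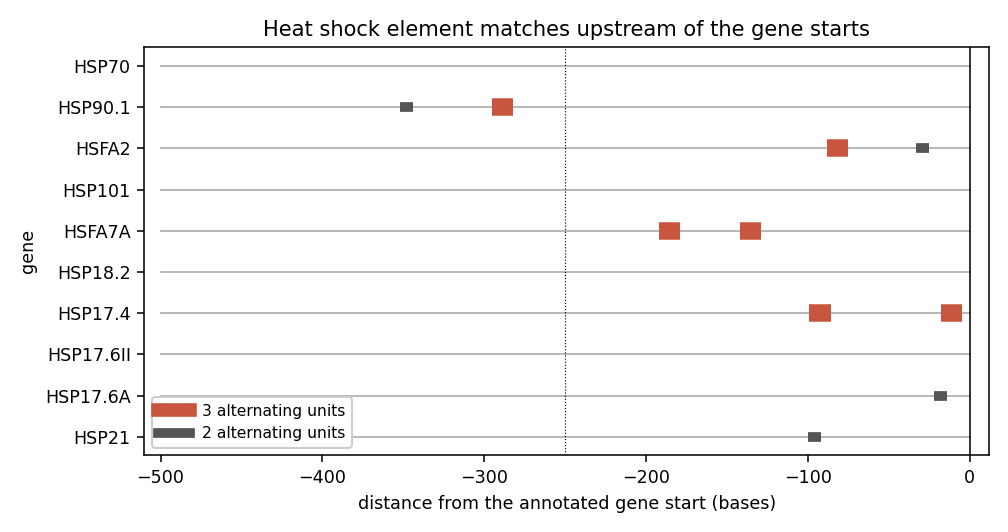
Position of heat shock element matches ahead of the 10 genes, as distance in bases from the annotated gene start (0, right); red blocks are matches of 3 alternating units, grey blocks are separate matches of 2 units, and the dotted line marks 250 bases. Matches of 3 units stand ahead of HSP90.1, HSFA2, HSFA7A and HSP17.4.

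The expression values are FPKM, fragment counts relative to the length of the gene and the total of the library, as deposited. Because 1 read is worth a fixed step of FPKM in a given gene and library, whole reads could be recovered from the values, and they imply totals of 21728500 counted reads for wild type and 23070249 for hdt1. Folds are ratios of the 2 FPKM values and are followed by a 95% exact (Clopper-Pearson) interval from the recovered reads, which covers counting error only. Log2 ratios are hdt1 over wild type with 1 FPKM added to each value, which makes differences of low genes look smaller, and the 17811 genes whose mean reached 1 FPKM were compared and ranked in this way. Their median log2 ratio was -0.03, and it moved to between 0.01 and 0.03 under 3 other scalings of the libraries. The targeted gene HDT1 (AT3G44750) stood at 52.6 FPKM in wild type and 5.19 FPKM in hdt1, 10.2-fold lower (8.42 to 12.3) and rank 3 from the lowest ratio. The gene AT3G44740 overlaps HDT1 in the annotation.

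The largest difference among the 10 genes on the log2 scale with 1 FPKM added was in HSFA2. This heat-inducible factor prolongs the response after the first exposure. HSFA2 was at 14.9 FPKM in wild type and 5.61 FPKM in hdt1, from at least 325 and 130 reads. The hdt1 value was 2.65-fold lower (2.16 to 3.28), a log2 ratio of -1.27 that ranked 73 from the lowest of 17811 genes. It was the only one of the 10 genes past 2-fold on the scale with 1 FPKM added. Across all compared genes 0.741% were at least 2-fold lower and 2.32% at least 2-fold higher. HSFA2 stood above 50.4% of the compared genes in wild type. The annotation gives 4 transcripts with 2 to 4 exons for it, and the FPKM value is 1 per gene, so its splice forms were not separated.

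HSFA7A, the other inducible factor of the set, differed in the opposite direction. It was at 2.98 FPKM in wild type and 5.5 FPKM in hdt1, from 53 and 104 reads, 1.85-fold higher (1.32 to 2.62). Its log2 ratio of 0.71 ranked 912 from the highest and did not reach 2-fold. The 2 factors were therefore well apart in the wild-type library, with counting intervals of 13.3 to 16.6 FPKM for HSFA2 and 2.23 to 3.9 FPKM for HSFA7A. In the hdt1 library they were at like levels, with overlapping intervals of 4.68 to 6.66 and 4.5 to 6.67 FPKM.

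The ATP-driven chaperones were all lower in the hdt1 library, none of them by 2-fold. HSP70, a heat-inducible cytosolic member of its family, was at 60 FPKM in wild type and 33.6 FPKM in hdt1, from 2976 and 1771 reads. That is 1.78-fold lower (1.68 to 1.89), a log2 ratio of -0.82 and rank 242 from the lowest. It was the most abundant of the 10 transcripts in either library, above 85.2% of the compared genes in wild type and above 73.9% in hdt1.

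HSP101, the disaggregase of the HSP100 family that is needed for acquired thermotolerance, was at 8.4 FPKM in wild type and 4.57 FPKM in hdt1, from 578 and 334 reads. It was 1.84-fold lower (1.6 to 2.11), with a log2 ratio of -0.75 and rank 295 from the lowest. The gene AT1G74300 overlaps it on the opposite strand and was at 2.96 FPKM in wild type and 1.91 FPKM in hdt1. The sources used here do not say whether reads were counted by strand, so reads from the shared stretch cannot be told apart.

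HSP90.1, the heat-inducible cytosolic HSP90, was at 32.2 FPKM in wild type and 21.8 FPKM in hdt1, from 1734 and 1244 reads. It was 1.48-fold lower (1.38 to 1.59), with a log2 ratio of -0.54 and rank 693 from the lowest. Of the 3 ATP-driven chaperones it had the smallest ratio, and its interval did not overlap those of HSP70 and HSP101.

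The small heat shock proteins were low in both libraries and did not share a direction. HSP18.2, of class I, was at 2.36 FPKM in wild type and 1.24 FPKM in hdt1, from 36 and 20 reads. The hdt1 value was 1.91-fold lower (1.08 to 3.48), with a log2 ratio of -0.59. HSP17.4, also of class I, was at 1.53 FPKM in wild type and 1.86 FPKM in hdt1, from 24 and 31 reads, and its ratio of 1.22 (0.691 to 2.17) could not be told from 1 at this depth.

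HSP17.4 is overlapped on the opposite strand by AT3G46220, which was at 10.9 FPKM in wild type and 11.3 FPKM in hdt1, and by a long non-coding RNA. The overlapping protein-coding gene was thus several times more abundant than HSP17.4 itself, and the share of its reads in the HSP17.4 value was not tested.

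The 2 class II genes are direct neighbours in the order of protein-coding genes on chromosome 5. HSP17.6A was at 0.511 FPKM in wild type and 1.51 FPKM in hdt1, from 7 and 22 reads, 2.96-fold higher (1.22 to 8.2) with a log2 ratio of 0.73. HSP17.6II was at 0.656 FPKM in wild type and 1.36 FPKM in hdt1, from 10 and 22 reads, a ratio of 2.07 whose interval (0.942 to 4.9) includes 1. Both stood below 1 FPKM in wild type and passed the minimum mean through the hdt1 library, so that they could have entered only with a higher hdt1 value. The log2 ratio of 0.73 of HSP17.6A does not reach 2-fold although its FPKM ratio does, because 1 FPKM added to each value weighs heavily at this level.

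HSP21, which protects the photosynthetic apparatus in heated chloroplasts, was at the limit of detection. It had 3 reads in the wild-type library (0.147 FPKM) and was listed at 0 in hdt1, where 0 reads allow a level of up to 0.139 FPKM. No fold is given, since both values are at or under the limit of 3 reads, and HSP21 did not enter the comparison.

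**Figure D2:**
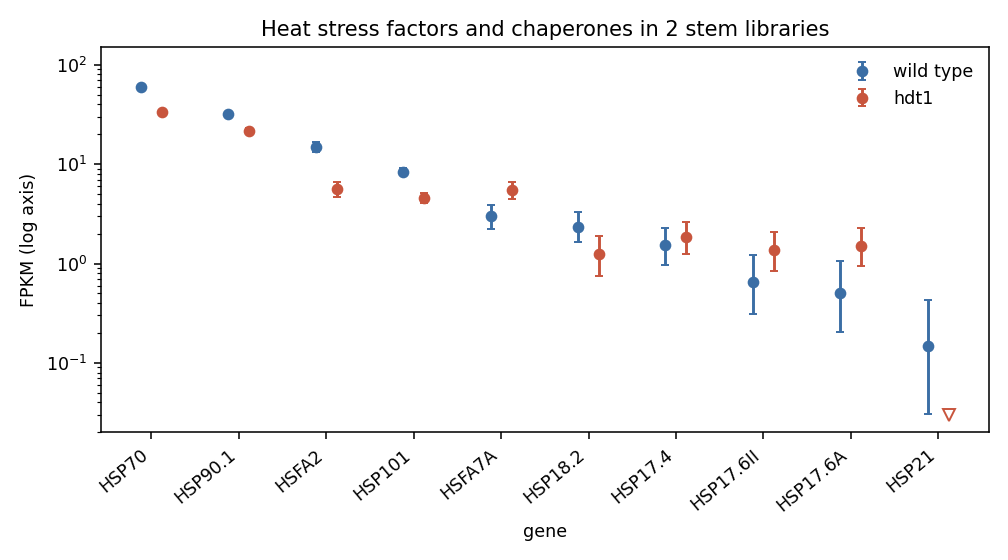
FPKM of the 10 genes (log axis) in the wild-type library (blue) and the hdt1 library (red), ordered by the wild-type level; bars are 95% exact Poisson intervals for counting error, and the open triangle is a value of 0. HSFA2 stands at 14.9 FPKM in wild type and 5.61 in hdt1, while HSFA7A stands at 2.98 and 5.5.

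The order of the levels, which FPKM allows to be compared between genes, was clear at the top and not at the bottom. In the wild-type library HSP70, HSP90.1, HSFA2 and HSP101 stood in this order with counting intervals that did not overlap. Below them HSFA7A, HSP18.2, HSP17.4, HSP17.6II, HSP17.6A and HSP21 followed, each with an interval overlapping that of the next. In the hdt1 library HSP70 and HSP90.1 again stood first, and HSFA2, HSFA7A and HSP101 formed a middle group whose neighbouring intervals overlapped, with HSP101 at 4.1 to 5.09 FPKM. The 4 cytosolic small heat shock proteins lay between 1.24 and 1.86 FPKM there, with overlapping intervals.

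Of the 10 genes 9 entered, 4 with a log2 ratio above 0 and 5 below, beside 9620 of 17811 compared genes below 0. On the scale with 1 FPKM added, 1 was at least 2-fold lower and 0 were at least 2-fold higher, and the 9 had a median log2 ratio of -0.54. Over all compared genes the median was -0.03. The interval of the fold lay below 1 for 5 of the 9 genes, HSFA2, HSP70, HSP101, HSP90.1 and HSP18.2, and in 29% of all compared genes. It lay above 1 for 2 of the 9, HSFA7A and HSP17.6A, and in 24.9% of all compared genes. HSP17.6A and HSP17.6II, both among the 4 genes above 0, could have entered only with a higher hdt1 value. HSP17.6A is also 1 of the 2 with an interval above 1. The direction of both genes therefore adds nothing to these counts, and the split of 4 and 5 was partly fixed by the minimum mean. The 4 genes with the most reads, HSP70, HSP90.1, HSP101 and HSFA2, were all lower in hdt1. The FPKM of all 10 genes summed to 124 in wild type and 77.1 in hdt1, and most of either sum came from HSP70 and HSP90.1. Over all loci the FPKM summed to 810302 in wild type and 776037 in hdt1.

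**Figure D3:**
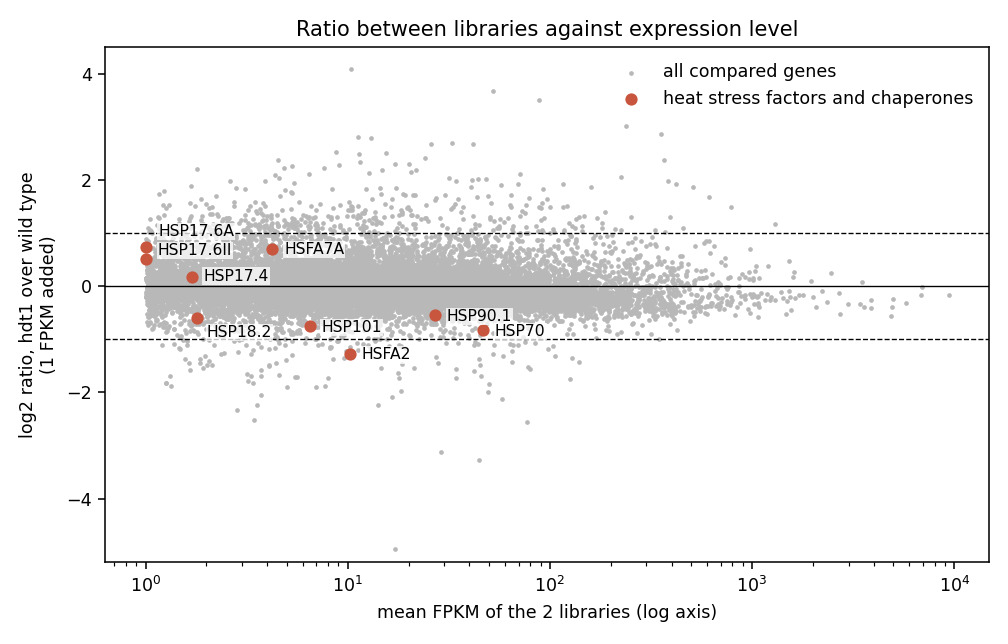
Log2 ratio of hdt1 over wild type with 1 FPKM added, against the mean FPKM of the 2 libraries (log axis), for all compared genes (grey) and the 9 heat genes that entered (red); dashed lines mark 2-fold. HSFA2 lies below the lower line, and the other 8 lie between the lines.

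The genes with elements of 3 units did not share a direction. HSFA2 and HSP90.1 were lower in hdt1, HSFA7A was higher, and HSP17.4 could not be told from equal. HSP70 and HSP101, which had no match in the window, were lower by 1.78-fold and 1.84-fold. Of the other genes of the lists described next, HSFA7B, HSP17.6C, GOLS1 and DREB2A held a match of 3 units. HSFA7B was listed at 0 in both libraries, HSP17.6C was below the minimum mean, and GOLS1 and DREB2A were higher in hdt1 with the values given below.

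The remaining heat shock factors were close to each other in the 2 libraries, apart from a few. Of 21 factors 15 entered, 9 with a log2 ratio above 0 and 6 below, with a median of 0.08, and HSFA2 alone was past 2-fold. The interval of the fold lay above 1 for 5 and below 1 for 4 of them, beside 24.9% and 29% of all compared genes. The class A1 factors, which start the response, gave no common direction. HSFA1A was 1.34-fold higher (1.1 to 1.65) at 4.66 FPKM in wild type and 6.27 FPKM in hdt1. The ratios of HSFA1B (1.08 higher, 0.977 to 1.2), HSFA1D (1.13 lower, 0.96 to 1.34) and HSFA1E (1.19 lower, 0.888 to 1.61) had intervals that include 1.

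HSFB2B, a class B factor that represses heat shock genes, was 1.65-fold lower (1.43 to 1.91) at 11.3 FPKM in wild type and 6.86 FPKM in hdt1. Its neighbour AT4G11670 overlaps it on the opposite strand, at 7.52 and 8.7 FPKM. HSFB3 was 1.88-fold higher (1.17 to 3.11) at 1.69 FPKM in wild type and 3.18 FPKM in hdt1. HSFA8, the most abundant factor in wild type, was lower at 56.4 FPKM in wild type and 45.3 FPKM in hdt1 (interval of the fold 1.16 to 1.34), and HSFA4A, the most abundant in hdt1, was 1.15-fold higher (1.08 to 1.22). HSFA6A was listed at 0 in wild type and had at least 6 reads (0.306 FPKM) in hdt1, and no fold is given for it. HSFB1, a repressor of the same class as HSFB2B, was listed at 0 in both libraries, as were HSFA7B and the seed factor HSFA9. The 0 of HSFB1 may be a matter of annotation or counting, which was not tested, so it is not read as absence from the stem. Summed over the family without HSFA2 and HSFA7A, the FPKM of the factors was 222 in wild type and 220 in hdt1.

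Most of the small heat shock protein transcript came from genes other than the 5 described above. Of 19 genes 13 entered, 6 above 0 and 7 below, none of them past 2-fold, with a median of -0.08. The 6 include HSP17.6A and HSP17.6II, whose direction was fixed by the minimum mean. HSP18.5 was the most abundant, at 178 FPKM in wild type and 123 FPKM in hdt1, 1.45-fold lower (1.36 to 1.54). HSP15.4 was 1.53-fold higher (1.29 to 1.81), at 25.1 FPKM in wild type and 38.3 FPKM in hdt1. Mitochondrial HSP23.5 was 2.09-fold lower (1.54 to 2.86) at 6.47 and 3.1 FPKM, a log2 ratio of -0.87 that does not reach 2-fold with 1 FPKM added, and mitochondrial HSP23.6 was listed at 0 in both.

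The classical cytosolic proteins of classes I and II were low throughout. Their 8 genes summed to 10.4 FPKM in wild type and 11.7 FPKM in hdt1. Of the class I genes not described above, HSP17.6B, HSP17.6A-CI (AT1G59860) and HSP17.8 lay between 1.22 and 1.97 FPKM in either library, and each had an interval of the ratio that includes 1. HSP17.6C was at 0.639 FPKM in wild type and 0.669 FPKM in hdt1.

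**Figure D4:**
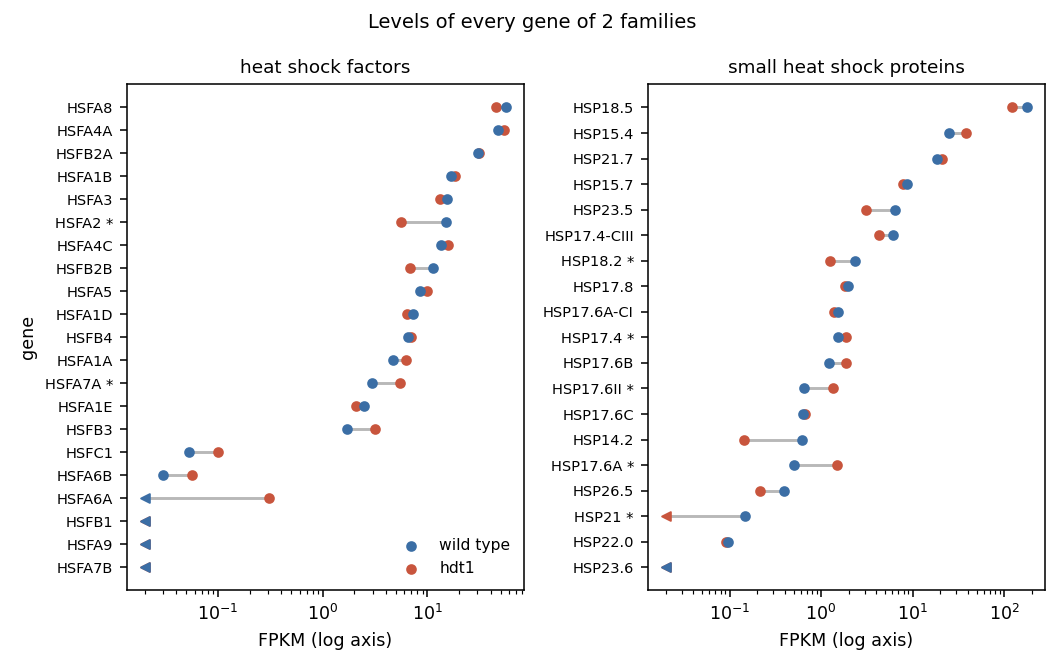
FPKM (log axis) of all 21 heat shock factors (left) and all 19 small heat shock proteins (right) in wild type (blue) and hdt1 (red), ordered by the higher-expressed genes at the top; triangles at the left edge are values of 0 and asterisks mark genes described one by one. HSFA2 has the widest gap among the factors that entered, and HSP18.5 at 178 and 123 FPKM has the highest level among the small heat shock proteins.

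All 5 cytosolic HSP70 genes were lower in hdt1, beside 9620 of 17811 below 0 among all compared genes. Their FPKM summed to 1489 in wild type and 1197 in hdt1, and that of all loci to 810302 and 776037. HSC70-3 was lower by an amount close to that of HSP70, at 242 FPKM in wild type and 136 FPKM in hdt1, 1.77-fold (1.72 to 1.83). HSC70-1, the abundant cytosolic form made without stress, was at 1132 FPKM in wild type and 983 FPKM in hdt1, 1.15-fold lower (1.14 to 1.17). HSC70-2 was 1.27-fold lower (1.2 to 1.35), and the heat-inducible HSP70B, at 5 FPKM in wild type and 4.48 FPKM in hdt1, had an interval that includes 1 (1.11 lower, 0.931 to 1.34). The make-up of this group therefore differed: HSC70-1 gave 76% of its FPKM in wild type and 82.1% in hdt1, HSC70-3 gave 16.2% and 11.4%, and HSP70 gave 4.03% and 2.81%.

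The HSP70 proteins of the organelles and the HSP110 proteins were nearer to equal. Over the whole family of 18 genes 16 entered, 12 below 0 and 4 above, beside 9620 and 8191 of all 17811 compared genes. The family had a median of -0.09 and none past 2-fold. The mitochondrial MTHSC70-1 was at 48.8 and 48.2 FPKM, the chloroplast cpHSC70-1 at 68 and 67.1 FPKM, and the endoplasmic reticulum protein BIP1 at 91.4 and 86 FPKM in wild type and hdt1. Of 50-base stretches of BIP2, 24.1% occur in another gene as well, so its reads and those of BIP1 may be shared, whereas HSP70 has none and HSC70-3 has 0.228%.

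The cytosolic HSP90 genes gave a like picture. HSP90.2 was 1.4-fold lower (1.35 to 1.45) in hdt1 against 126 FPKM in wild type, and HSP90.3 was 1.3-fold lower (1.26 to 1.34) at 157 and 121 FPKM. HSP90.4 was nearly equal at 13.5 and 13.7 FPKM. Of the 50-base stretches of these 3 genes, 18.9%, 24.8% and 19.5% occur more than once in the nuclear genome, while HSP90.1 has none. Their reads may therefore be shared with other places, which were not located. HSP90.1 supplied 9.82% of the cytosolic HSP90 FPKM in wild type and 8.85% in hdt1. The organelle forms HSP90.5 of chloroplasts, HSP90.6 of mitochondria and HSP90.7 of the endoplasmic reticulum had log2 ratios of 0.06, -0.02 and 0.17. The median of all 7 genes was -0.02, and it was above 0 under 3 other scalings.

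In the HSP100 and Clp family HSP101 had the lowest ratio of 6 genes. CLPB4, its mitochondrial relative, was 1.35-fold lower (1.18 to 1.54) at 7.37 FPKM in wild type and 5.47 FPKM in hdt1. CLPB3, the chloroplast relative, was at 18 FPKM in wild type and 17.1 FPKM in hdt1 with an interval of the ratio that includes 1 (0.972 to 1.14). CLPC1, which works in chloroplast protein import and degradation, was 1.13-fold higher (1.11 to 1.15) at 328 and 371 FPKM. The median of the 6 genes was -0.01, and it too was above 0 under 3 other scalings.

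Of the 16 co-chaperone genes all entered, 13 with a log2 ratio below 0 and 3 above, with a median of -0.18, beside 9620 of 17811 below 0 among all compared genes. The interval of the fold lay below 1 for 10 and above 1 for 0 of them, beside 29% and 24.9% of all compared genes. One was past 2-fold: the J-domain gene DNAJ (AT2G20560) was at 22.3 FPKM in wild type and 9.72 FPKM in hdt1, 2.3-fold lower (2.01 to 2.63) and rank 94 from the lowest. FES1A, a nucleotide exchange factor of HSP70 that is needed for thermotolerance, was 1.55-fold lower (1.4 to 1.72) in hdt1 against 27.2 FPKM in wild type. MGE2, a mitochondrial GrpE exchange factor, was 1.37-fold lower (1.19 to 1.58), J2 was 1.26-fold lower (1.2 to 1.33), and the HSP90 partner SGT1A was 1.26-fold lower (1.19 to 1.33).

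Other heat response genes differed in both directions. MBF1C (AT3G24500), a transcriptional coactivator of thermotolerance, was at 95.5 FPKM in wild type and 34.8 FPKM in hdt1, from at least 1261 and 488 reads. It was 2.74-fold lower (2.47 to 3.05) and ranked 55 from the lowest, below HSFA2. On the opposite strand AT3G24503 overlaps it, at 60.4 FPKM in wild type and 46.7 FPKM in hdt1, and its part in the MBF1C value was not tested.

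GOLS1, the galactinol synthase that heat shock factors induce, was 1.82-fold higher (1.76 to 1.88) at 200 FPKM in wild type and 363 FPKM in hdt1, and AT2G47170 overlaps it on the opposite strand at 161 and 153 FPKM. DREB2A, a factor of the drought and heat responses that acts upstream of HSFA3, was 1.31-fold higher (1.23 to 1.4) at 52.1 and 68.3 FPKM. HSFA3 itself was 1.17-fold lower (1.02 to 1.33). The lipocalin gene TIL, named for its induction by temperature, was 1.55-fold lower (1.5 to 1.6) at 374 and 242 FPKM. Of the 10 genes of this list 8 entered, 5 above 0 and 3 below, with a median of 0.03 that was -0.02 when no minimum level was asked.

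The chaperonins of the organelles were lower in hdt1. The 3 HSP60 chaperonins were 1.24-fold (CPN60A), 1.18-fold (CPN60B) and 1.32-fold (HSP60) lower, with a median log2 ratio of -0.31. The interval of the fold lay below 1 for all 3, and in 29% of all compared genes. Of 13 genes of the unfolded protein response of the endoplasmic reticulum 11 entered, 4 above 0 and 7 below, with a median of -0.08 and none past 2-fold. ERDJ3A had the lowest log2 ratio of these, -0.62, at 1.58 FPKM in wild type and 0.681 FPKM in hdt1. It reached the minimum mean through the wild-type library, so that it could have entered only with a lower hdt1 value. BZIP60, the factor of this response that is activated by splicing, was 1.19-fold lower, at 177 FPKM in wild type and 148 FPKM in hdt1. Over all 9 lists without the 10 heat genes, 83 genes entered, 31 above 0 and 52 below, with a median of -0.08, beside 9620 of 17811 below 0 among all compared genes. At least 2-fold lower were 2 of the 83 and at least 2-fold higher 0, beside 0.741% and 2.32% of all compared genes.

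**Figure D5:**
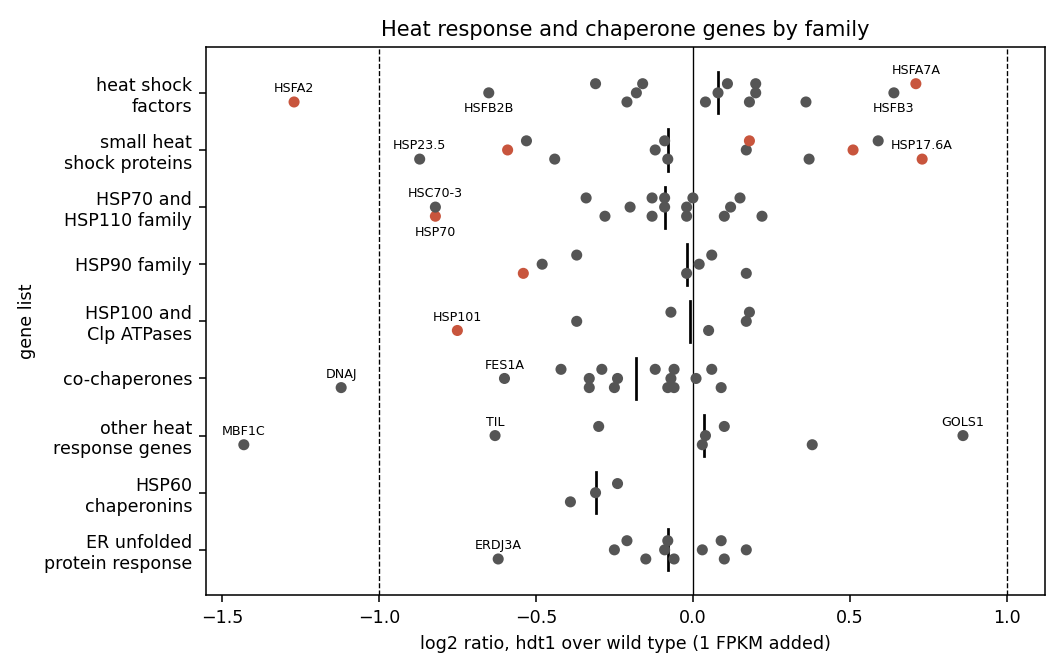
Log2 ratio of hdt1 over wild type with 1 FPKM added for each gene of 9 lists of heat response and chaperone genes that entered (points; red are the 10 heat genes less HSP21), with the list median as a short bar and dashed lines at 2-fold. Past the lower line lie HSFA2, DNAJ and MBF1C, and the co-chaperones and HSP60 chaperonins lie mostly left of 0.

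The cell types in the 2 stems were compared through marker genes. All 5 markers of stem xylem and fibre were higher in hdt1, beside 8191 of 17811 above 0 among all compared genes. XCP1, at 0.924 FPKM in wild type and 2.21 FPKM in hdt1, reached the minimum mean through the hdt1 library. It could have entered only with a higher hdt1 value. The 5 markers summed to 27.5 FPKM in wild type and 79.2 FPKM in hdt1. The 3 phloem markers summed to 131 FPKM in wild type and 182 FPKM in hdt1. The 3 markers of stem epidermis summed to 210 and 204 FPKM but did not share a direction. CER1 was 1.44-fold lower in hdt1 (1.26 to 1.64) and LTP1 was 1.78-fold higher (1.53 to 2.07). KCS6, at 181 FPKM in wild type and 166 FPKM in hdt1, made up most of the sum. In whole-stem RNA fewer cells of a type and less RNA per cell cannot be told apart, and the part of these tissue differences in the values of the heat genes was not tested. Of 5 seed markers 4 were at 0 in both libraries and OLEO1 had 3 reads in hdt1. The 5 flower markers summed to 2.03 and 2.37 FPKM. Of the pollen markers MGH3 was at 0 in both, VGD1 was at 1.83 FPKM in wild type and 5.75 FPKM in hdt1, and the list summed to 35.8 and 38.4 FPKM.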

How the data were processed

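Total RNA of the main stem was sequenced from 1 hdt1 and 1 wild-type sample. Gene FPKM values were deposited by the authors for 33669 features, per the file headers. Per the submitters' processing notes, the tools were HTSeq 0.6.1, TopHat2 2.0.12 and Bowtie2 2.2.3. Build, annotation and strand setting: not given in the sources used here. Features without a locus identifier (67) were left out.

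Whole reads were recovered from the steps of the FPKM values for 23497 of 23501 features above 0 in a library. The multiple was taken as settled by RefSeq gene lengths (TAIR10.1) for 84.2% of them, where the next larger multiple would have been too long for the annotated exons. For the others the reads are a lower bound ("at least"), and the counting intervals are, if anything, wider than the full reads would give. The gene length implied by the reads equalled the annotated exon length for 2446 features. Recovered reads sum to 96.4% of the wild-type and 96.9% of the hdt1 total. The recovery was tested on simulated data. Intervals and floors (3 reads) cover counting error alone, and because reads are not independent molecules they may be too narrow even for that.

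Log2 ratios used a pseudocount of 1 FPKM and a minimum mean of 1 FPKM, and at least 2-fold was counted. Named were the 10 genes, any gene of their families, and up to 5 genes of each other list with the largest absolute log2 ratio. The 10 genes and the lists were chosen with earlier results of these data known. Coordinates are those of the RefSeq sequence only, found by locus identifier. Other pseudocounts, filters, scalings and limits were tried. Python 3.11.15, NumPy 2.4.6, SciPy 1.17.1, pandas 2.3.3 and Matplotlib 3.10.9 were used.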

Additional observations from a re-analysis of the deposited data

How the results depend on the processing

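With 1 library per genotype no result could be repeated without a library, and every value above rests on 2 libraries. No paired analysis was possible because each genotype has 1 library. The 3 other scalings took the median of the HSP90 family from -0.02 to between 0.02 and 0.04 and that of the HSP100 and Clp ATPases from -0.01 to between 0.03 and 0.05, and without a minimum level that of the other heat response genes went from 0.03 to -0.02. Another pseudocount cannot change the direction of a gene. None of the 10 heat genes changed direction under the 3 other scalings. Those scalings moved the median of all compared genes only from -0.03 to between 0.01 and 0.03. The log2 ratio nearest to 0 among the 10 genes was 0.18 (HSP17.4), so the scalings could hardly have changed a direction. Of the 10 heat genes, 0 were at least 2-fold higher, against 1 with a pseudocount of 0.1 FPKM (HSP17.6A) and 2 at a limit of 1.5-fold. At least 2-fold lower was 1, against 0 with a pseudocount of 5 FPKM (HSFA2, -0.91), 4 at 1.5-fold and 0 at 4-fold. Their median of -0.54 was -0.79 when a mean of at least 5 FPKM was asked and -0.24 with a pseudocount of 5 FPKM, and lay between -0.56 and -0.37 otherwise. Of all compared genes 413 were higher, against 652 and 167 with pseudocounts of 0.1 and 5 FPKM, 271 with a mean of at least 5 FPKM, 1254 at 1.5-fold and 37 at 4-fold. Lower were 132, against 246, 47, 79, 572 and 11 in the same order. The ratios of the 5 small heat shock proteins among the 10 genes are limited by depth, with 36 reads or fewer in either library.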
